A study of Mus musculus with 6 samples.

Results

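Creatine kinase and creatine genes were followed in tdTomato-positive cells of the mouse dentate gyrus, part of the hippocampus. The sample titles call these cells neurons. The genes were the creatine kinases Ckb and Ckmt1, the creatine synthesis genes Gatm and Gamt, and the creatine transporter gene Slc6a8. All 5 were found by symbol in the deposited expression table, among 55367 symbols. The mice carried a Cre recombinase driven by the activity gene Fos and inducible with tamoxifen, together with a Cre-dependent tdTomato reporter (TRAP2;Ai9), so that cells active around a learned helplessness procedure were marked red. In learned helplessness, animals exposed to inescapable stress no longer try to avoid it. Both groups went through it: 3 libraries came from mice without running (NR) and 3 from mice that then ran voluntarily for 28 days (Run). The red cells were collected by fluorescence-activated sorting and profiled by Smart-seq2, which copies whole polyadenylated RNA molecules and amplifies them by PCR. The labels place all 6 libraries in a single batch. They describe the libraries both as single cell and as neurons sorted from groups. The age of the mice and the number of cells and animals per library are not stated in the labels, so p-values measure only the spread between libraries, which may be technical.

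Creatine buffers energy in cells with sudden demands. Creatine kinase moves a phosphate between ATP and creatine: the mitochondrial enzyme (Ckmt1) charges creatine where ATP is made, and the cytosolic brain enzyme (Ckb) uses phosphocreatine to restore ATP where it is spent. Creatine itself is made in 2 steps, by the amidinotransferase encoded by Gatm, which joins arginine and glycine to guanidinoacetate, and by the methyltransferase encoded by Gamt, which methylates that product. Slc6a8 imports ready-made creatine across the cell membrane. In the brain the synthesis genes and the transporter are known to be spread over several cell types, glia among them.

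Ckb was abundant in every library, Gatm was found in all but 1 Run library, and Gamt, Ckmt1 and Slc6a8 were seen in 1 or 2 libraries each. Values are FPKM (fragments scaled to the length of the transcript and the size of the library), a level per length that allows genes to be set against each other. An FPKM of at least 1 was reached by all 5 genes in NR replicate 2, by 3 genes in Run replicate 3 and by 2 genes in each of the other 4 libraries. NR replicate 2 also had the most genes of any kind at that level, 7355, where the other libraries had 5426 to 6291. Its part in the detection of the creatine genes was not tested. Only Ckb and Gatm passed the filter used for testing, which asked for 3 or more libraries at FPKM 1 or above.

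**Figure D1:**
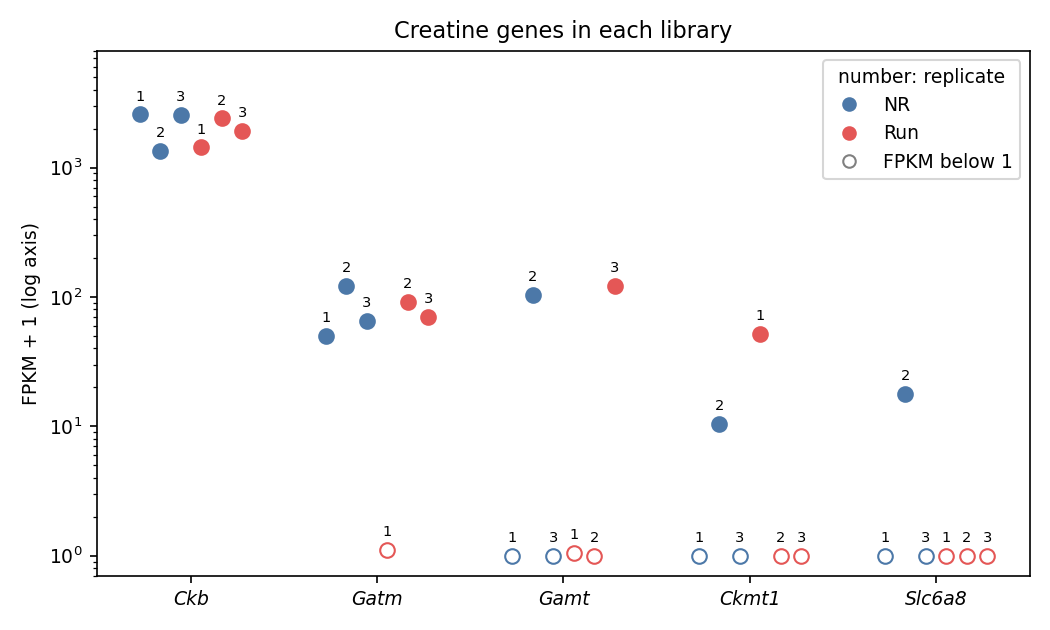
FPKM + 1 (log axis) of the 5 creatine genes in each library, NR in blue and Run in red, with the replicate number above each point and open circles for FPKM below 1. Ckb stands between 1343 and 2576 in all 6 libraries, and Slc6a8 has a filled circle only for NR replicate 2.

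Ckb (ENSMUSG00000001270.9, chromosome 12, 111669361 to 111672338, minus strand, mm10) encodes the cytosolic brain-type creatine kinase. It had 2576, 1343 and 2569 FPKM in NR replicates 1, 2 and 3 and 1429, 2395 and 1924 FPKM in Run replicates 1, 2 and 3. The lowest values were those of NR replicate 2 and Run replicate 1, and the groups overlapped over most of their range. Among 21521 nuclear protein-coding genes it ranked between the 6th (NR replicate 3) and the 15th place (Run replicate 1), and its share of all FPKM in a library lay between 0.281% and 0.542%. The highest library exceeded the lowest 1.92-fold.

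Between the groups, the mean Ckb level was 2163 ± 710 FPKM without running and 1916 ± 483 with running (SD, n = 3 each). The log2 difference, taken as Run minus NR in log2(FPKM + 1), was -0.14 ± 0.33 (SE; limma adjusted p = 0.981), with a 95% interval from -0.91 to 0.63. As a ratio of Run to NR the interval ran from 0.531 to 1.54. The estimate changed sign without NR replicate 1 (0.013), without NR replicate 3 (0.011) and without Run replicate 1 (0.051), and it was -0.46 without NR replicate 2. The SD of Ckb within groups, 0.465 on the log2 scale, was smaller than that of most genes: 600 of 6155 tested genes had a smaller one, and the median was 1.98. Among 32 genes with a mean log2 level within 1 of that of Ckb, the median SD was 0.398, and 23 of them had a smaller SD than Ckb.

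Part of the Ckb signal cannot be assigned with certainty, because the mouse genome holds a processed pseudogene of it, Gm12892 (chromosome 4, 122008193 to 122009338, plus strand, GENCODE M21). Its 1146 bases correspond to the whole Ckb coding sequence of 1146 bases and were identical at 1112 of 1149 aligned positions (96.8%), with 31 substitutions and 6 gap positions. The first 180 bases of both are shown to make the resemblance visible, with capitals at the 8 bases that differ, counted from the A of the start codon.
Ckb: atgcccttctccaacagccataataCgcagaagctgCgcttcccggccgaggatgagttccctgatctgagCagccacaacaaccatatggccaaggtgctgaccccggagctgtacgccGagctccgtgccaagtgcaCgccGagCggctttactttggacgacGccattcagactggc
Gm12892: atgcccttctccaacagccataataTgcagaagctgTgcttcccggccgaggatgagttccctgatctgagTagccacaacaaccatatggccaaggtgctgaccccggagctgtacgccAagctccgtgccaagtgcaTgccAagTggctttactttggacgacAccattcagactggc
Positions 695 to 944 of the coding sequence were the longest stretch without any difference, so that a read of 250 bases from it matches both places equally. It is shown because no base in it tells the gene from the copy.
Ckb and Gm12892: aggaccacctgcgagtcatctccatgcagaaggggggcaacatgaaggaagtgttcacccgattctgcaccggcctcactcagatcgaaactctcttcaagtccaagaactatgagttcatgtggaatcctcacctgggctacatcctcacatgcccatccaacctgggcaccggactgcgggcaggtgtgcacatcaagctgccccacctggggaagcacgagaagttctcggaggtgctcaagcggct

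Gm12892 had 10.2, 5.04 and 11.0 FPKM in NR and 6.25, 10.4 and 7.55 FPKM in Run. Like Ckb, it was lowest in NR replicate 2 and Run replicate 1. The ratio of Ckb to Gm12892 stayed between 229 and 266 in the 6 libraries, with a coefficient of variation of 6.41%, and the copy amounted to 0.375% to 0.438% of the Ckb value. Adding its FPKM to that of Ckb left the difference between the groups at -0.14. How the authors' processing shared reads between the gene and the copy was not recorded in the labels. In a search of all GENCODE M21 transcripts for alignments of at least 200 bases at 90% identity, none of the other 4 creatine genes matched another gene.

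Of 1750 other genes at FPKM 1 or above in every library, the 3 whose log2 profile was most like that of Ckb were Ldhb, Dctn6 and this pseudogene. Ldhb, which encodes the heart-type subunit of lactate dehydrogenase, had a Pearson r of 0.983 with Ckb over the 6 libraries. It had 841, 387 and 934 FPKM in NR and 367, 912 and 578 FPKM in Run. Dctn6, which encodes a subunit of the dynactin complex, also had r = 0.983. It had 112, 55.0 and 111 FPKM in NR and 51.3, 115 and 83.9 FPKM in Run. Gm12892 followed with r = 0.982. All 4 were lowest in NR replicate 2 and Run replicate 1. With 6 libraries that share the same total scaling, 18 genes exceeded r = 0.9, and these values only describe the profiles.

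Markers of other cell types were present in the sorted material, and the astrocyte sum was above the pan-neuronal sum in every library. Sums of different lists do not give shares of cells. The 9 astrocyte markers together had 4671, 2526 and 3878 FPKM in NR and 2820, 5279 and 2689 FPKM in Run, and 8 of them reached FPKM 1 in every library. Their sum was lowest in NR replicate 2, as was Ckb, and highest in Run replicate 2 and NR replicate 1. The 8 pan-neuronal markers together had 243, 609 and 725 FPKM in NR and 852, 570 and 417 FPKM in Run, and 2 of them, Snap25 and Camk2a, reached FPKM 1 in every library. Their sum was highest in Run replicate 1, where Ckb was near its lowest, and lowest in NR replicate 1, where Ckb was highest. The next highest pan-neuronal sum, 725 FPKM, was in NR replicate 3, where Ckb had 2569 FPKM. The endothelial markers together had 2736, 4157 and 1924 FPKM in NR and 1946, 1920 and 2653 FPKM in Run. Their highest sum was in NR replicate 2, where Ckb was lowest. The next highest was in NR replicate 1, where Ckb was highest. No relation between a marker list and a creatine gene was tested. Aldoc, a glycolytic enzyme gene and the astrocyte marker with the highest mean, was of the same order as Ckb: the ratio of Ckb to Aldoc lay between 0.751 (Run replicate 1) and 1.53 (Run replicate 3). In sorted libraries with an unstated number of cells, fewer cells of a type and less RNA per cell cannot be told apart. The part of other cells in the Ckb values was not tested.

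**Figure D2:**
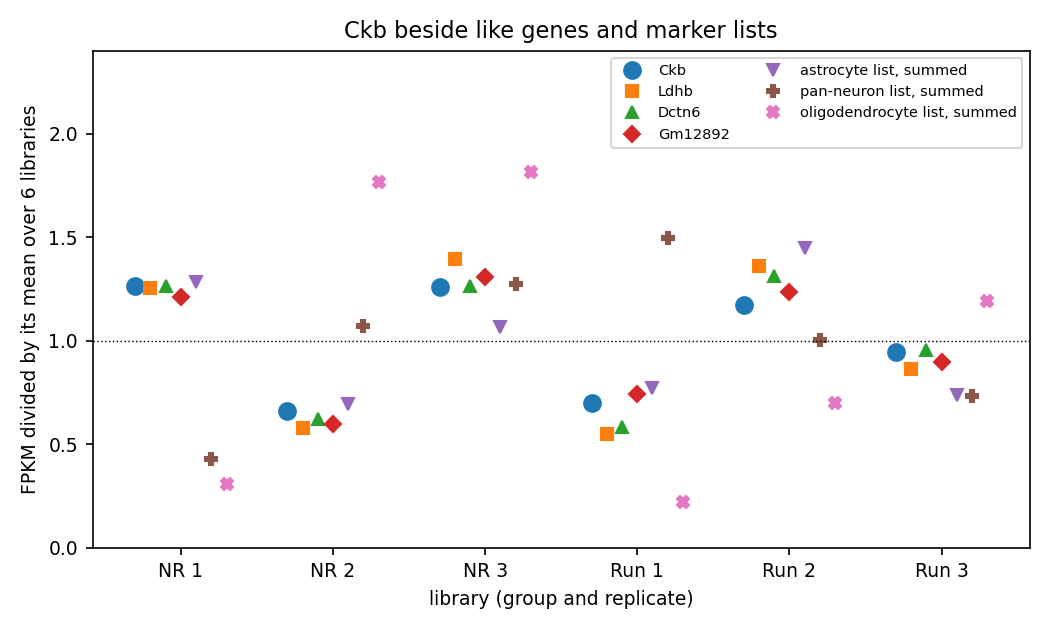
FPKM of Ckb, of the 3 genes most like it and of the summed astrocyte, pan-neuronal and oligodendrocyte marker lists in each library, each divided by its own mean over the 6 libraries (dotted line at 1). Ckb and its 3 companions lie below 1 in NR replicate 2, Run replicate 1 and Run replicate 3, while the pan-neuronal sum is lowest in NR replicate 1.

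Gatm (ENSMUSG00000027199.14, chromosome 2, 122594467 to 122611303, minus strand), which encodes the mitochondrial enzyme of the first step of creatine synthesis, had 48.8, 121 and 64.0 FPKM in NR and 0.111, 90.4 and 69.4 FPKM in Run. Run replicate 1 stood apart from the other 5 libraries, which overlapped between the groups. The log2 difference was -1.93 ± 1.74 (SE; limma adjusted p = 0.978), with a 95% interval from -6.05 to 2.18. Without Run replicate 1 it was 0.13 ± 0.72 (limma adjusted p = 1.00). The size and sign of the estimate thus rested on that library. The 9 oligodendrocyte markers together had their lowest sum in the same library. They had 257, 1472 and 1512 FPKM in NR and 183, 583 and 996 FPKM in Run. Their next lowest sum was in NR replicate 1, where Gatm had 48.8 FPKM. Their part in the Gatm value was not tested.

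**Figure D3:**
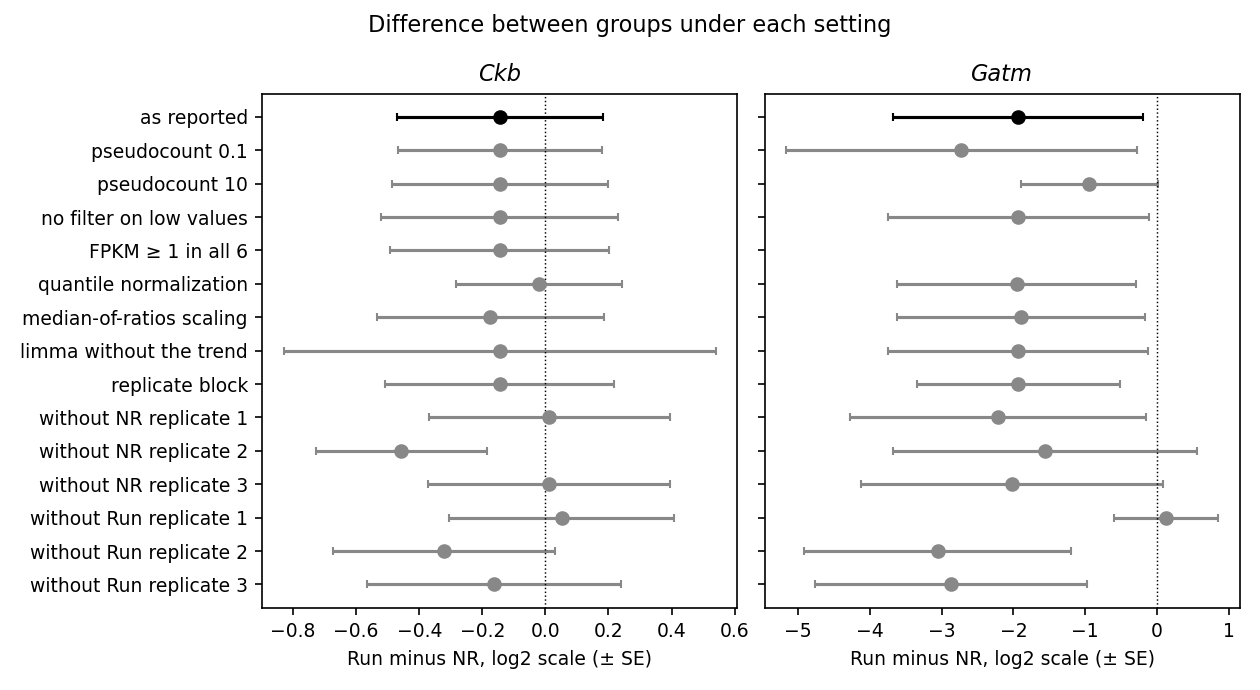
Run minus NR difference of Ckb (left) and Gatm (right) on the log2 scale, with bars of 1 SE, as reported (black) and under each other setting or with 1 library left out (grey). The point of Gatm moves from -1.93 to 0.13 without Run replicate 1, and the points of Ckb lie between -0.46 and 0.051.

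Gamt (ENSMUSG00000020150.13, chromosome 10, 80258151 to 80261012, minus strand), which encodes the methyltransferase that completes creatine, was seen in 1 library of each group. NR replicate 2 had 103 FPKM and Run replicate 3 had 120 FPKM. Run replicate 1 had 0.0441 FPKM, and the gene was listed at 0 in NR replicates 1 and 3 and in Run replicate 2. The values above 1 were close to those of Gatm in NR replicate 2 (121 FPKM) and above it in Run replicate 3 (69.4 FPKM). Among 1329 protein-coding genes with a mean FPKM within 1.5-fold of that of Gamt, the median gene reached FPKM 1 in 4 libraries, and 81 genes (6.09%) did so in 2 libraries or fewer. The annotated transcripts of Gamt are short, 988 bases at most, against up to 1620 for Ckmt1 and 2389 for Gatm. Slc6a8 has the longest, with up to 3964 bases, and reached FPKM 1 in 1 library. The part of transcript length in detection was not tested.

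Ckmt1 (ENSMUSG00000000308.14, chromosome 2, 121357714 to 121363737, plus strand), the ubiquitous mitochondrial creatine kinase, also appeared once in each group. It had 9.43 FPKM in NR replicate 2 and 50.8 FPKM in Run replicate 1 and was listed at 0 in the other 4 libraries. Run replicate 1 was thus the library with the highest Ckmt1 and the lowest Gatm, and it had the highest pan-neuronal marker sum. NR replicate 3, with a pan-neuronal sum of 725 FPKM, had Ckmt1 listed at 0 and Gatm at 64.0 FPKM. NR replicate 2, the other library with Ckmt1, had a pan-neuronal sum of 609 FPKM and the highest Gatm, 121 FPKM. No relation between these values was tested. Among 2393 protein-coding genes of a like mean level, 53.4% reached FPKM 1 in 2 libraries or fewer, so such a pattern was common at this level.

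Slc6a8 (ENSMUSG00000019558.14, chromosome X, 73673150 to 73682502, plus strand), the creatine transporter, had 16.7 FPKM in NR replicate 2 and was listed at 0 in the other 5 libraries. Of 1505 protein-coding genes of a like mean level, 55.4% were found at FPKM 1 in 1 library at most. A listed 0 need not mean that no RNA was there, so no fold change between the groups is given for Gamt, Ckmt1 or Slc6a8, and no group mean. With 1 of 3 libraries per group above FPKM 1 for Gamt and Ckmt1, and 1 of 3 NR and 0 of 3 Run libraries for Slc6a8, no difference between the groups was detectable.

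By mean log2(FPKM + 1), the genes followed the order Ckb (10.9), Gatm (5.23), Gamt (2.28), Ckmt1 (1.51) and Slc6a8 (0.69). The 4 neighbouring pairs were compared within libraries by an exact 2-sided sign-flip permutation test. Since the same means set the order, the values mainly describe it, and the design could not pass 0.05 after adjustment: the smallest adjusted p it allowed was 0.0625. Ckb was higher than Gatm in 6 of 6 libraries, with a mean log2 difference of 5.71 ± 2.39 (SD, n = 6; exact permutation p = 0.0312, the smallest that 6 libraries allow; adjusted over the 4 pairs 0.125). The ratio of Ckb to Gatm was 52.7, 11.1 and 40.2 in NR and 26.5 and 27.7 in Run replicates 2 and 3, with Gatm below FPKM 1 in Run replicate 1. Gatm was higher than Gamt in 5 of 6 libraries (2.95 ± 3.43, SD, n = 6; exact permutation p = 0.156, adjusted 0.312). In Run replicate 1, which is among the 5, both genes were below FPKM 1. Both reached FPKM 1 only in NR replicate 2, where Gatm was the higher, and in Run replicate 3, where Gamt was. Gamt and Ckmt1 were both listed at 0 in 3 libraries, and Gamt was the higher in 2 of the other 3 (0.77 ± 4.17, SD, n = 6). Ckmt1 and Slc6a8 were both listed at 0 in 4 libraries, and each was the higher in 1 (0.82 ± 2.41, SD, n = 6). With so many ties the smallest exact permutation p-values possible for these 2 pairs were 0.25 and 0.5, so the order of Gamt, Ckmt1 and Slc6a8 could not be tested.

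In the comparison of all tested genes, limma called 0 of 6155 at an adjusted p under 0.05 (0%), so the absence of calls among creatine genes matched the whole table. Without adjustment, 304 genes (4.94%) had a p under 0.05, and neither Ckb nor Gatm was among them. The groups did not overlap for 551 tested genes (8.95%), and for neither Ckb nor Gatm.

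The other genes of creatine handling were at or near 0. The muscle kinase gene Ckm had 0.0158 FPKM in Run replicate 1 and was listed at 0 elsewhere. The sarcomeric mitochondrial kinase gene Ckmt2 and the monocarboxylate transporter family genes Slc16a12 and Slc16a9 were listed at 0 in all 6 libraries. Ckb thus held at least 96.6% of the FPKM of the 4 creatine kinase genes in each library, and in 4 of the 6 it was the only kinase of the family above FPKM 1.

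Around the creatine genes, 55 genes on 7 lists were described. They covered other creatine genes, partners of the mitochondrial kinase, other phosphotransfer kinases and the metabolism and transport of creatine precursors. The remaining lists were the methyl donor pathway, other small-molecule methyltransferases, and the nearest relatives of the transporter. Of the 55 genes, 34 were tested, 14 with a higher and 20 with a lower mean in Run, and none passed the adjusted threshold. Their median log2 difference was -0.33, beside -0.03 for all tested genes, of which 3007 had a higher and 3148 a lower mean in Run. A single gene of the 34 had an unadjusted p under 0.05, and for 3 the groups did not overlap, near the 4.94% and 8.95% of all tested genes. That gene was Ak1, named after its values were seen, the cytosolic adenylate kinase that shares the work of phosphotransfer with creatine kinase. Ak1 had 39.6, 15.7 and 58.4 FPKM in NR, was listed at 0 in Run replicates 1 and 2 and had 1.82 FPKM in Run replicate 3. Its log2 difference of -4.60 ± 1.23 (SE) did not pass (limma adjusted p = 0.369).

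The channel and carrier proteins through which mitochondrial creatine kinase exchanges its substrates were all tested, 2 of 5 with a higher and 3 with a lower mean in Run (median log2 difference -0.29). Slc25a4, the adenine nucleotide carrier of excitable tissue, averaged 408 ± 71.9 FPKM in NR against 343 ± 109 in Run (SD, n = 3 each). Slc25a5, a second adenine nucleotide carrier, had 169, 51.2 and 248.8 FPKM in NR and 252, 249.2 and 283 FPKM in Run. The groups touched without overlapping, since NR replicate 3 lay just under the lowest Run library, and the log2 difference of 1.00 ± 0.65 (SE) had a limma adjusted p = 0.978. Vdac3, a channel of the outer mitochondrial membrane, averaged 201.2 ± 112 FPKM in NR against 172 ± 180 in Run (SD, n = 3 each). Vdac2, Vdac3 and both carriers reached FPKM 1 in every library, while Vdac1, named after its values were seen, was listed at 0 in NR replicate 1, had 0.264 FPKM in NR replicate 3 and reached FPKM 1 in the other 4. Ckmt1 was listed at 0 in 4 libraries.

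Of 10 other phosphotransfer kinases 9 were tested, 6 with a higher and 3 with a lower mean in Run (median log2 difference 0.13). Of the nucleoside diphosphate kinase genes, Nme1 averaged 69.3 ± 6.53 FPKM in NR against 72.8 ± 18.6 in Run, and Nme2 averaged 142 ± 68.1 against 150 ± 53.3 (SD, n = 3 each). Both reached FPKM 1 in all 6 libraries, while Nme3 and Nme4, named after their values were seen, did so in 3 and 4. Ak3, an adenylate kinase of the mitochondrial matrix, had 107, 0.253 and 73.2 FPKM in NR and 83.3, 39.7 and 111 FPKM in Run.

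Genes of the metabolism and transport of the precursors arginine, glycine and serine gave 13 tested genes of 16. No gene was past an unadjusted p of 0.05. The list mixes genes that make or carry a precursor with genes that break one down, so its counts do not describe supply. Of the 13, 9 had a lower and 4 a higher mean in Run (median log2 difference -1.13). Only 3 of the 16 genes reached FPKM 1 in all 6 libraries, so most of these differences include values below FPKM 1. Phgdh, the first enzyme of serine synthesis, averaged 312 ± 181 FPKM in NR against 318 ± 142 in Run (SD, n = 3 each). Ass1, which makes the immediate precursor of arginine, averaged 152 ± 110 against 116 ± 69.9 FPKM (SD, n = 3 each). Psat1, the next enzyme of serine synthesis after Phgdh, had 417, 19.6 and 170 FPKM in NR and 60.5, 35.0 and 62.6 FPKM in Run. In NR its values ranged both above and below all Run values.

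The methylation step of Gamt depends on S-adenosylmethionine. Of 10 genes listed around its supply and turnover, 4 were tested. Among them 1 had a higher and 3 a lower mean in Run (median log2 difference -0.66). Adk, which clears the adenosine left by methyl transfer, averaged 147 ± 144 FPKM in NR against 91.1 ± 33.2 in Run (SD, n = 3 each). Mat2a, the enzyme that makes S-adenosylmethionine outside the liver, averaged 101 ± 51.3 FPKM in NR against 83.3 ± 68.6 in Run (SD, n = 3 each), and its regulatory subunit gene Mat2b had 17.1, 77.3 and 45.6 FPKM in NR and 57.1, 139 and 0 FPKM in Run. Ahcyl1 is an Ahcy-like gene, and nothing about methyl supply is read from its values. It was named after its values were seen because its groups did not overlap. Ahcyl1 had 0, 17.9 and 8.90 FPKM in NR and 73.9, 57.0 and 21.5 FPKM in Run. Its log2 difference was 3.01 ± 1.42 (SE), with a limma adjusted p = 0.978. Ahcy, Mtr and Bhmt were listed at 0 in all 6 libraries.

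Among the nearest relatives of Slc6a8 in its transporter family, Slc6a6, the taurine transporter, reached FPKM 1 in 5 libraries, where Slc6a8 did so in 1. It had 10.4, 70.3 and 49.2 FPKM in NR and 45.5, 17.8 and 0.259 FPKM in Run, with overlapping groups. Slc6a12 and Slc6a13 were listed at 0 in all 6 libraries.

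**Figure D4:**
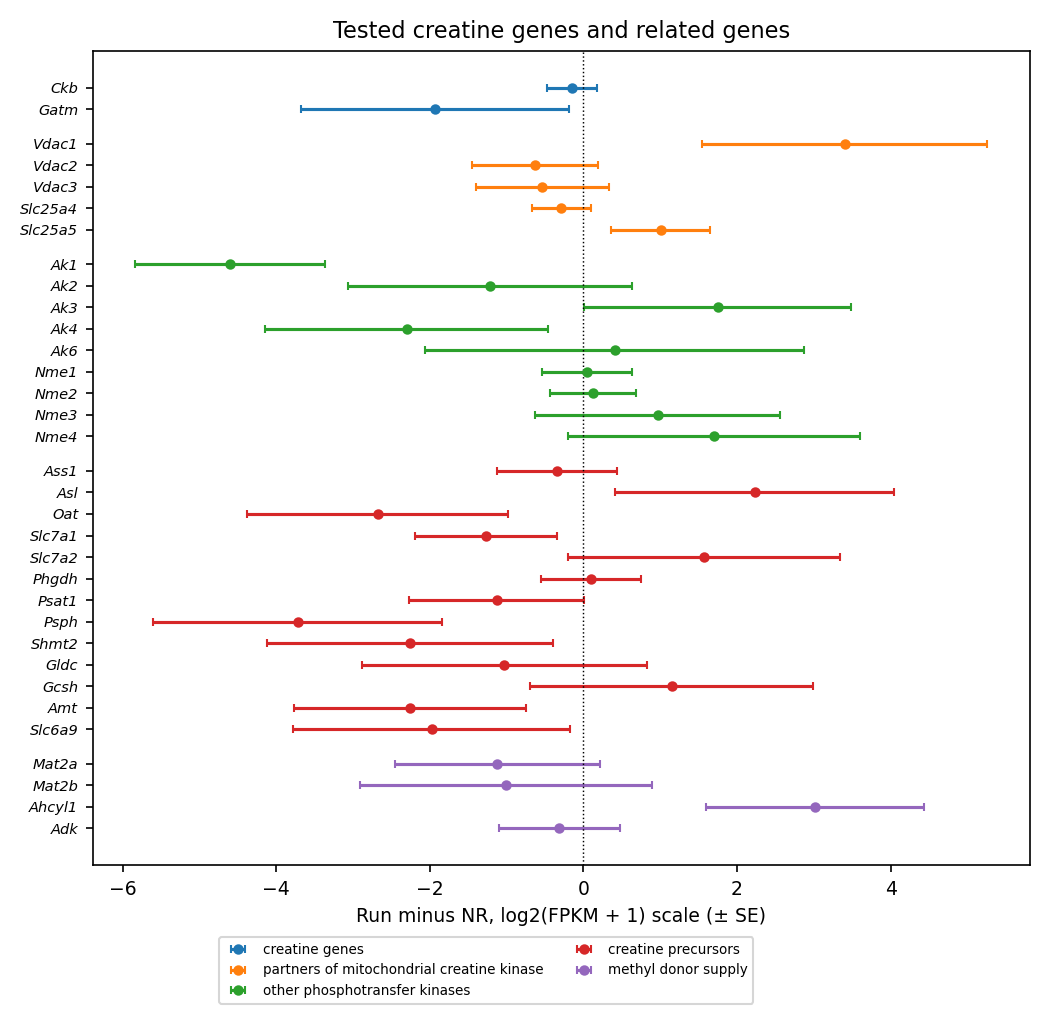
Difference in log2(FPKM + 1), Run minus NR, with bars of 1 SE for Ckb, Gatm and 31 tested genes on 4 of the related lists, coloured by list. Ckb has a shorter bar than any other gene shown, and Ak1 at -4.60 lies farthest from 0.

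The remaining marker lists describe the material behind these values. Of 7 granule neuron markers none reached FPKM 1 in all 6 libraries, and their sum ranged from 41.3 to 161 FPKM in NR and from 34.8 to 173 in Run, led by Stxbp6 and C1ql2. Endothelial markers summed to 1924 to 4157 FPKM in NR and 1920 to 2653 in Run, led by Bsg and Ly6c1. Microglial markers, led by Tyrobp and C1qa, summed to 55.0 to 553 in NR and 179 to 840 in Run. Mural markers, led by Acta2 and Tagln, summed to 489 to 1438 and 317 to 743. Oligodendrocyte precursor markers, led by Olig1 and Lhfpl3, summed to 1.08 to 56.3 and 13.8 to 38.8, and choroid plexus and ependymal markers, led by Ccdc153 and Ttr, to 50.3 to 158 and 23.1 to 81.7. Kcnj8 of mural cells and Folr1 and Kl of the choroid plexus were listed at 0 in all 6 libraries. The astrocyte markers were led by Aldoc and Gfap, and Mbp was among the highest oligodendrocyte markers.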

How the data were processed

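The authors deposited FPKM values in 1 table of 6 columns. Build mm10 and the tools StringTie 2.1.7, STAR 2.7.5c, Trimmomatic 0.39, edgeR and DESeq2 are named per the submitters' processing notes. Their roles and the annotation are not given in the sources used here. Of 55367 symbols, 96.2% matched GENCODE M21, which gave coordinates, lengths and transcript sequences. The creatine genes and all lists were chosen with earlier results of these data known. Groups come from the sample titles, and no 2 libraries shared their values (at least 99.99% differed).

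Values were tested as log2(FPKM + 1) in 2-sided limma 3.58.1 fits (R 4.3.3) that used a mean-variance trend, with Benjamini-Hochberg adjustment over the 6155 genes that reached FPKM 1 in 3 or more libraries. The scale understates changes of low genes. The procedure was run on simulated data whose spread within groups was smaller than that of most genes here. Changes were set only in genes of high level. It therefore does not show which changes could be found at the real spread. Lists gave their 3 tested genes with the highest mean, and marker lists their 2 highest; a few of these are not reported here. Alternatives changed the pseudocount, filter, scaling, trend and pairing, left out each library and used an exact permutation test. At best 13.9% to 18.3% of low values of single-transcript genes lay within 0.05 of a whole multiple of a common step. The median share over all steps tried was 9.85% to 10.5%. No clear step was found, so read depth is unknown. Tables and alignments used Python 3.11.15.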

Additional observations from a re-analysis of the deposited data

How the results depend on the processing

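No creatine gene passed the adjusted threshold under any alternative that could give it a test, and no gene of the table did. Ckb changed sign without NR replicate 1 (0.013), NR replicate 3 (0.011) or Run replicate 1 (0.051), and its difference ranged from -0.46 to 0.051 when 1 library was left out. Gatm ranged from -3.05 to 0.13, the latter without Run replicate 1, and was -0.94 with a pseudocount of 10 and -2.72 with 0.1. Without the filter, limma tested Ckmt1, Gamt and Slc6a8 with adjusted p from 0.712 to 1. The direction of their differences rested on single libraries: it turned for Ckmt1 without Run replicate 1 and for Gamt without NR replicate 1, NR replicate 3 or Run replicate 3, and Slc6a8 had no difference left without NR replicate 2. Genes at an unadjusted p under 0.05 numbered 82 with FPKM of at least 1 required in all 6 libraries, where 1751 genes were tested. They numbered 252 to 334 with 1 library left out, where 4938 to 5376 genes were tested. In the level order, Gamt against Ckmt1 turned to -0.46 without Run replicate 3, and Ckmt1 against Slc6a8 to -0.15 without Run replicate 1. With 1 library left out, these differences ranged from 4.79 to 6.16, 2.24 to 3.70, -0.46 to 2.05 and -0.15 to 1.14 down the order. Exact permutation p-values for the group difference were 0.6 for Ckb and 0.7 for Gatm, where 0.1 is the smallest possible. The replicate numbers shared by the groups were not taken as pairs in the main fit. Same-numbered libraries deviated from their group means with r = 0.021, 0.004 and 0.018, and differently numbered ones with r from -0.019 to 0.0005. These values lie near 0 and are tied to each other by the centring on group means. They cannot decide whether the numbers mark pairs. With the replicate block, Ckb stayed at -0.14 ± 0.36 (SE) and Gatm at -1.93 ± 1.42, and 251 genes in place of 304 had an unadjusted p under 0.05. The remaining alternatives kept the direction of Ckb, Gatm and the level order. The depth is unknown, so whether a value of 0 reflects depth cannot be told.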
